A study of Mus musculus with 16 samples.

Results

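Genes that drive DNA replication and cell division were followed in myeloid cells sorted from the lungs of tumour-bearing mice. The 40 genes were given by symbol, and each was read from the probe set annotated with that symbol alone, the one with the highest mean over the 16 arrays where there were several. A probe set was found for 39 of the 40 genes, out of 19938 genes in all. Ccnb1, which encodes cyclin B1, had none and was not analysed here. Of the 39 genes, 18 act in replication and the G1/S transition and 21 in mitosis.

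The animals were C57BL/6 mice carrying Lewis lung carcinoma (LLC), an established mouse lung tumour line, grown in the lung from cells placed in the airways. Myeloid cells carrying CD11b, CD11c and MHC class II, which the labels name CD11b+ DCs (dendritic cells), were sorted from the tumour (8 arrays, tumoral 1 to 8) and from the lung around it (8 arrays, peritumoral 1 to 8). Both labels thus come from tumour-bearing lungs, and no array of tumour-free lung is used here. The labels name neither the age, sex or number of the mice nor the animal or pool behind an array, so the p-values cover the spread between arrays alone, and that spread may be technical.

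Dividing cells copy their DNA once and then separate the copies. Before S phase the origin recognition machinery, with Cdc6 and Cdt1, loads the Mcm helicase on DNA, and E2F transcription factors raise the genes for replication proteins and nucleotide synthesis once cyclin D and cyclin E kinases have inactivated the retinoblastoma protein. The mitosis genes are raised later, by the MuvB complex with B-Myb and FOXM1, which binds the CHR element of their promoters, often beside CCAAT boxes bound by NF-Y. The anaphase promoting complex starts anaphase by marking securin and cyclin B for destruction. Mature conventional dendritic cells divide little, and their precursors divide more, so in a bulk sample the level of these genes depends on the share of dividing cells. Fewer cells of a type and less RNA per cell cannot be told apart in bulk samples.

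Values are the deposited log2 values, and differences are tumoral minus peritumoral means. Over all probe sets the array medians lay between 6.75 and 6.95, and the arrays differed in the width of their distribution, with an SD of all values from 1.98 to 2.16. The genes of the sorting markers were high in all 16 arrays, with Itgax (CD11c) at 11.07 to 11.79, Itgam (CD11b) at 10.18 to 11.80 and H2-Ab1 (MHC class II) at 13.06 to 13.38. Peritumoral 4 and peritumoral 7 stood apart in endothelial genes: Cdh5 (VE-cadherin) read 12.09 and 10.29 there and between 6.53 and 8.56 in the other 14 arrays. The mean of 8 endothelial genes, each relative to its own mean, was 3.80 in peritumoral 4, and peritumoral 4 also had the highest mean of the T and NK cell, B cell, neutrophil and fibroblast lists. For each gene whose values are given in detail, the difference is also given without both of these arrays.

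Promoter sequences are given first, because E2F elements are known from many replication genes and CHR elements from many mitosis genes. The genes are ordered here by function, not by these elements. RefSeq promoters of GRCm38.p6, windows of 300 bases around the start site, were matched by symbol for 30 of the 39 genes (31 windows). The CHR letters TTTGAA or TTTAAA, searched on both strands, occurred in 14 of 16 mitosis windows (87.5%), in 5 of 15 replication windows (33.3%) and in 27.6% of all 32851 windows. CCAAT, also on both strands, occurred in 14 of 16 mitosis windows, in 9 of 15 replication windows (60%) and in 37.4% of all windows. The E2F letters TTTCGCG or TTTGGCG occurred in 1 of 16 mitosis windows (6.25%), in 5 of 15 replication windows (33.3%) and in 2.37% of all windows. These matches are descriptions of letters in a window and say nothing of a factor's binding.

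4 windows are printed as examples, 2 of replication and 2 of mitosis genes, with the matches to any of the 3 motifs in capitals on whichever strand they lie (a reverse match appears as its complement, ATTGG for CCAAT, for example). Mcm6, a subunit of the replicative helicase, lies at chr1:128359656-128359955 on the minus strand and has 3 E2F matches, 2 of them overlapping on opposite strands, 2 CCAAT matches and no CHR match. Rrm2, the small subunit of ribonucleotide reductase, lies at chr12:24708004-24708303 on the plus strand and has 1 CHR and 1 CCAAT match and no E2F match. Cdk1, the kinase that starts mitosis, lies at chr10:69352863-69353162 on the minus strand and has 2 CHR matches, 3 CCAAT matches and 1 E2F match. Ccnb2, which encodes cyclin B2, a partner of Cdk1, lies at chr9:70421505-70421804 on the minus strand and has 2 CHR and 3 CCAAT matches. Mcm6 holds E2F and no CHR letters and Ccnb2 the reverse, whereas Rrm2 is a replication gene with the CHR letters and Cdk1 is the 1 mitosis gene of 16 windows with the E2F letters. The mitosis genes Bub1 and Nusap1 had no CHR match.
Mcm6: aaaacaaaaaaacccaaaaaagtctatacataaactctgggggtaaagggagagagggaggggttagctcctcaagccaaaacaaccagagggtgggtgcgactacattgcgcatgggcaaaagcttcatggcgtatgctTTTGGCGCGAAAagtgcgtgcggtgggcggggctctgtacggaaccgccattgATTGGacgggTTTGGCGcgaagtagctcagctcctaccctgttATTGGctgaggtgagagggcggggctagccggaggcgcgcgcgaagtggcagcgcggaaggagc
Rrm2: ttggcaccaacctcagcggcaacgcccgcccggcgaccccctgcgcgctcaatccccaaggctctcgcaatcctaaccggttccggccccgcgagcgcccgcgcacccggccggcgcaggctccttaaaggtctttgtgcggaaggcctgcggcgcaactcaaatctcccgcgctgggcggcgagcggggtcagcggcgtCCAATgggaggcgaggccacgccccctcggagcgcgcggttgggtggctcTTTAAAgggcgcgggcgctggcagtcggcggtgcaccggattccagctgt
Cdk1: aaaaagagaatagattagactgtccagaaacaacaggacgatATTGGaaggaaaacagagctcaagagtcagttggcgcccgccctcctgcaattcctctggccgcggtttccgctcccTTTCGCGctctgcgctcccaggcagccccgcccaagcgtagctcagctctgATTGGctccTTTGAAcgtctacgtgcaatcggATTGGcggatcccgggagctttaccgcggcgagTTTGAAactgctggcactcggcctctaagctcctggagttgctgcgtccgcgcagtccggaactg
Ccnb2: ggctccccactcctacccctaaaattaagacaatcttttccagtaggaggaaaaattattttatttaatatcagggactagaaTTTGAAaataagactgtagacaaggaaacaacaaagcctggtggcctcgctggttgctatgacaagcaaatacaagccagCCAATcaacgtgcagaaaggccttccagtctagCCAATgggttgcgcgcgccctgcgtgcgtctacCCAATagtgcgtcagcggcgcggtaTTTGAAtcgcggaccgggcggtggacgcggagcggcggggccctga

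No cell cycle gene of the 39 differed between tumoral and peritumoral arrays by limma with Benjamini-Hochberg adjustment over all genes at 0.05. The background share was the same, 0 of 19938 genes (percent called: 0). At an unadjusted p under 0.05, 2 of the 39 passed, against 2292 genes in all (11.5%). Both, Hmgb2 and Pcna, were higher in tumoral arrays, as 5.6% of all genes were at that p, and none of the 39 was lower, as 5.9% of all genes were. The labels overlapped in each of the 39 genes and were separate in 17 genes in all (0.0853%). Exact rank-sum tests called 0 genes after adjustment and also had 2 of the 39 at an unadjusted p under 0.05. The mean was higher in tumoral arrays for 21 of the 39 and lower for 18, where it was higher for 41.7% of all genes, and the median difference was 0.002, beside -0.02 over all genes. The split depended on the scaling: it was 18 of 39 beside 47.6% of all genes after quantile normalization and 24 of 39 beside 58.3% after centring on array medians. It also depended on single arrays of both labels: 13 of 39 had the higher tumoral mean without peritumoral 4 (median difference -0.06) and 15 without tumoral 4 (-0.07), against 28 without peritumoral 3 (0.09) and 27 without tumoral 2 (0.08). The label accounted for a median of 1.98% of the variance of these genes over the 16 arrays, against 5.60% over all genes. The 95% interval reached 0.33 to either side of the difference at the median gene, so smaller differences were mostly not detectable here even before adjustment. Larger ones could also go uncalled after adjustment over all genes, as Hmgb2 did with a difference of 0.45 (limma adjusted p = 0.232).

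No licensing gene passed the test. Of the 9 (Mcm2 to Mcm7, Cdc6, Cdt1 and Gins2, a subunit of the active helicase), 4 had the higher mean in tumoral arrays and the median difference was -0.006. Mcm5 read 8.39, 8.95 and 9.30 (lowest, median and highest) in tumoral arrays and 8.66, 9.18 and 9.56 in peritumoral arrays. The labels overlapped over most of that range, with a difference of -0.18 (95% interval -0.49 to 0.13, adjusted p = 0.659) and of -0.33 without peritumoral 4 and 7. Mcm7, another helicase subunit, read 7.93, 8.57 and 8.91 against 8.27, 8.67 and 9.09. Its difference was -0.15 (-0.44 to 0.15, adjusted p = 0.708), and -0.27 without those arrays. Mcm4 and Cdc6 were the widest on the other side, at 0.09 and 0.12, with intervals that include 0.

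Of the 5 genes of the fork and of nucleotide supply, Pcna, the sliding clamp of DNA polymerases, had the smallest p. Pcna read 11.22, 11.15, 11.23, 11.20, 11.18, 11.36, 11.34 and 11.44 in peritumoral 1 to 8, and 11.48, 11.34, 11.49, 11.56, 11.39, 11.50, 11.63 and 11.39 in tumoral 1 to 8. Most tumoral arrays were high, but peritumoral 6, 7 and 8, at 11.36, 11.34 and 11.44, lay within their range. The means were 11.47 ± 0.10 and 11.26 ± 0.10 (SD, n = 8 each), a difference of 0.21 (0.09 to 0.33). Its limma adjusted p was 0.246, and the difference was 0.21 without peritumoral 4 and 7 too. Its other probe set gave 0.20. Thymidine kinase 1 (Tk1) had tumoral values from 8.25 to 8.73 (median 8.40) and peritumoral values from 7.98 to 9.02 (median 8.51). Its difference was -0.10 (-0.36 to 0.17), or -0.23 without peritumoral 4 and 7. The other Tk1 probe set gave a difference of -0.0016 with all arrays kept. Rrm2 and Tyms (thymidylate synthase) differed by -0.12 and -0.08 and Rrm1 by 0.07, all with intervals that span 0.

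None of the 4 genes of G1/S control passed the test. Ccne2 (cyclin E2) ran from 6.14 to 7.72 (median 6.93) in tumoral arrays and from 6.11 to 7.53 (median 6.59) in peritumoral arrays. The labels overlapped almost entirely and the difference was 0.25 (-0.27 to 0.77, adjusted p = 0.721), or 0.096 without peritumoral 4 and 7. E2f1, the transcription factor, ran from 7.97 to 8.74 (median 8.42) and from 7.93 to 9.08 (median 8.72). Its difference was -0.19 (-0.52 to 0.14, adjusted p = 0.662), or -0.38 without those arrays. Ccne1 differed by -0.03, and Ccnd1 (cyclin D1) by 0.003, with tumoral values between 10.79 and 11.10 and peritumoral values between 10.51 and 11.33.

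Among the mitotic kinases and cyclins and the factor Foxm1, 2 of 7 had the higher tumoral mean (1 to 5 of 7 when single arrays were left out, 5 without peritumoral 3) and the median difference was -0.07. Cdk1 read 8.23, 8.60, 9.28, 7.78, 8.58, 9.14, 8.28 and 8.88 in peritumoral 1 to 8. In tumoral 1 to 8 it read 9.21, 7.98, 9.15, 9.62, 8.36, 8.48, 9.46 and 8.47. Both labels held arrays below 8.3 and above 9.1, and the difference of 0.25 (-0.28 to 0.77, adjusted p = 0.726) lay well within the spread of either label (SD 0.59 tumoral, 0.50 peritumoral). Without peritumoral 4 and 7 it was 0.057. Aurkb, the kinase of the chromosomal passenger complex, ran from 8.73 to 9.63 (median 9.15) in tumoral arrays and from 8.59 to 9.93 (median 9.31) in peritumoral arrays, a difference of -0.17 (-0.54 to 0.21, adjusted p = 0.743), or -0.36 without those arrays. Ccna2, Ccnb2, Aurka, Plk1 and Foxm1 differed by between -0.16 and 0.00, and Ccnb2, at -0.16, by -0.36 without peritumoral 4 and 7.

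Of the 5 checkpoint and anaphase promoting complex genes, 2 had the higher tumoral mean. Birc5 (survivin, of the passenger complex) ran from 7.19 to 8.13 (median 7.65) in tumoral arrays and from 6.65 to 7.77 (median 7.57) in peritumoral arrays. Its difference was 0.23 (-0.09 to 0.55, adjusted p = 0.574), or 0.12 without peritumoral 4 and 7. Ube2c, the ubiquitin-conjugating enzyme of the anaphase promoting complex, ran from 8.42 to 9.02 (median 8.78) and from 8.32 to 9.38 (median 8.91), a difference of -0.16 (-0.46 to 0.13, adjusted p = 0.677), or -0.32 without those arrays. Bub1, Bub1b and Cdc20, of the spindle checkpoint, differed by 0.06, -0.12 and -0.11.

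All 6 spindle and kinetochore genes had the higher tumoral mean, with a median of 0.10 and none past the test. The count was 2 of 6 without peritumoral 4, 4 to 6 of 6 when any other single array was left out, and 5 of 6 after quantile normalization. Without both peritumoral 4 and 7 it was 0 of 6, with a median difference of -0.08. Cenpe, a kinetochore motor, ran from 6.87 to 8.23 (median 7.43) in tumoral arrays and from 6.21 to 8.15 (median 7.29) in peritumoral arrays. Its difference was 0.20 (-0.29 to 0.68, adjusted p = 0.775), or -0.015 without peritumoral 4 and 7. Tpx2, which activates Aurora A on the spindle, ran from 7.15 to 8.50 (median 7.82) and from 6.89 to 8.44 (median 7.81), a difference of 0.12 (-0.32 to 0.56, adjusted p = 0.861), or -0.059 without those arrays. Kif11, Kif20a, Nusap1 and Cenpf differed by 0.00 to 0.10.

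The 3 chromatin genes of dividing cells, Hmgb2, Top2a and Mki67, had the higher tumoral mean under each setting tried. Hmgb2, a chromatin protein of the high mobility group, read 8.80, 8.75, 8.91, 8.53, 8.73, 8.76, 9.24 and 9.22 in peritumoral 1 to 8, and 9.35, 9.15, 9.32, 9.37, 9.22, 9.43, 9.49 and 9.20 in tumoral 1 to 8. Peritumoral 7 and 8 lay among the tumoral arrays and the other 6 peritumoral arrays lay below all of them. The means were 9.31 ± 0.12 and 8.87 ± 0.25, a difference of 0.45 (0.25 to 0.65). The limma adjusted p was 0.232. Its 4 probe sets gave 0.43 to 0.45. The adjusted p ranged from 0.0217 to 0.447 over the alternatives, and passed 0.05 where peritumoral 7 (0.0217, difference 0.50, with 0.642% of all genes passing) or peritumoral 8 (0.0460, difference 0.50, with 0.1%) was left out. It also passed with peritumoral 4 and 7 left out (0.0301, difference 0.45), and with these and tumoral 2 left out (0.0288, difference 0.48, with 0.943% of all genes passing).

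In deposited order, Hmgb2 was low in the first 6 arrays (8.53 to 8.91) and higher in the other 10 (9.15 to 9.49), a split that falls inside the peritumoral label. It was the only one of the 39 genes to separate these 6 arrays from the other 10, which 196 genes did in all (0.983%). That split was chosen after the values were seen and has no counterpart in the labels. Top2a, the topoisomerase that untangles sister DNA, ran from 8.58 to 9.62 (median 9.15) in tumoral arrays and from 8.09 to 9.31 (median 8.90) in peritumoral arrays, a difference of 0.28 (-0.08 to 0.63, adjusted p = 0.537), or 0.15 without peritumoral 4 and 7. Mki67, the usual proliferation marker, read 10.25, 10.20, 10.33, 9.38, 9.93, 10.26, 10.28 and 10.28 in peritumoral arrays and 10.06 to 10.43 (median 10.24) in tumoral arrays. Peritumoral 4 was the lowest, and the difference of 0.11 (-0.13 to 0.35, adjusted p = 0.726) was 0.0075 without it and 0.018 without peritumoral 7 as well.

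**Figure D1:**
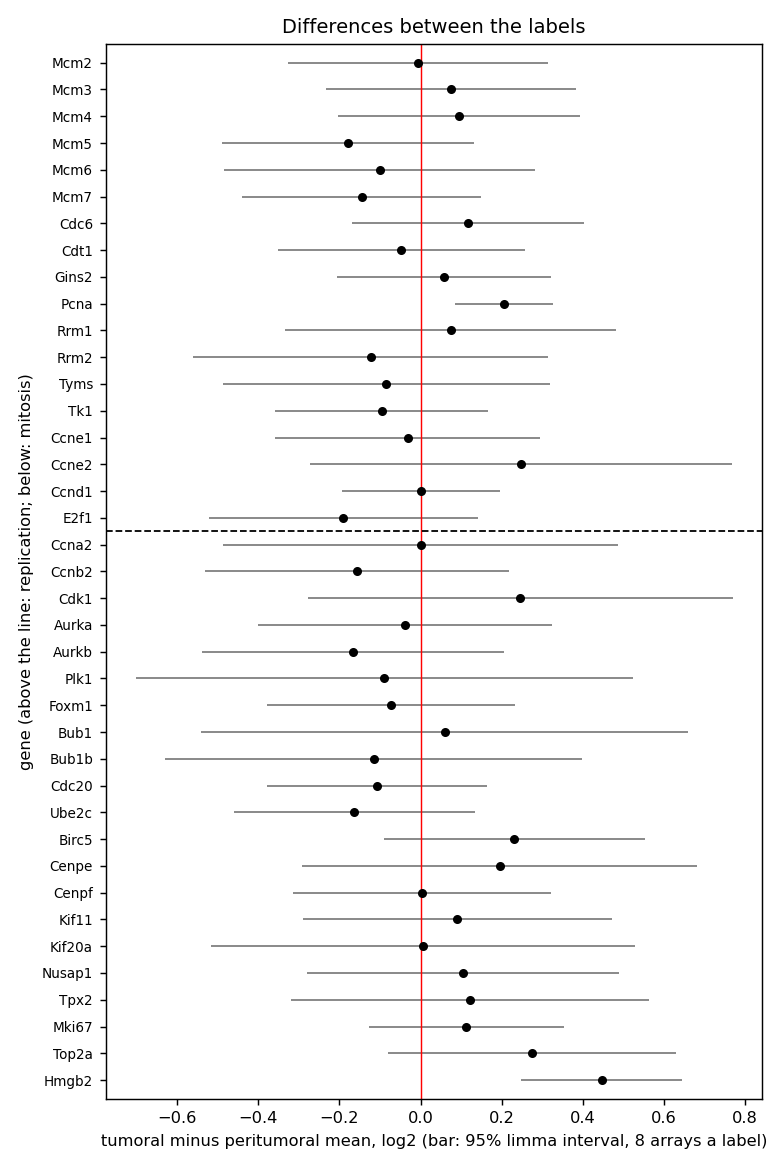
Difference of the label means (tumoral minus peritumoral, log2) for the 39 genes, replication genes above the dashed line and mitosis genes below it. Points are differences and bars are 95% limma intervals from 8 arrays a label; the intervals of Hmgb2 (0.25 to 0.65) and Pcna (0.09 to 0.33) lie above 0 and those of the other 37 include it.

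**Figure D2:**
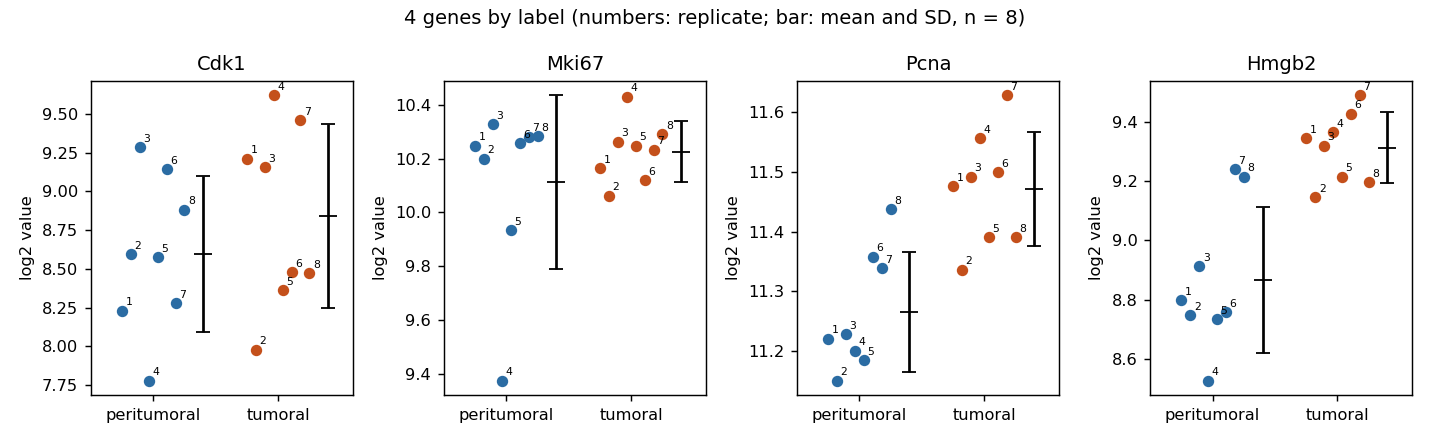
Log2 values of Cdk1, Mki67, Pcna and Hmgb2 in each array by label, numbered by replicate, with the mean and SD (n = 8 each). Cdk1 spans 7.78 to 9.62 within overlapping labels, while in Hmgb2 peritumoral 7 and 8 sit with the tumoral arrays.

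Although the labels did not separate them, the genes varied strongly between arrays. The median SD over the 16 arrays was 0.34 for the 39 genes and 0.18 for all genes. The median range from lowest to highest array was 1.22 (2.33-fold) against 0.65 (1.57-fold). Of the 39 genes, 37 had a mean above that of the median gene, as 9969 of all 19938 genes did. The all-gene values here and in the shares below were not matched for level. Mitosis genes spanned a median of 1.47 (2.78-fold) and replication genes 1.08 (2.11-fold). Cenpe spanned 2.01, Bub1 1.98 and Cdk1 1.84, whereas Pcna spanned 0.48 and Ccnd1 0.82.

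The genes varied together from array to array. The mean deviation of the mitosis genes from their own means was -0.06, 0.10, 0.56, -0.76, -0.21, 0.38, -0.26 and 0.05 in peritumoral 1 to 8, and 0.27, -0.53, 0.19, 0.54, -0.24, -0.19, 0.37 and -0.22 in tumoral 1 to 8. The replication genes followed, at -0.02, 0.08, 0.46, -0.40, -0.10, 0.32, -0.29 and -0.01 and then 0.19, -0.51, 0.16, 0.39, -0.21, -0.15, 0.30 and -0.21. Peritumoral 3, peritumoral 6, tumoral 1, tumoral 3, tumoral 4 and tumoral 7 had between 35 and 38 of the 39 genes above the gene's own median. In peritumoral 4 and tumoral 2 none of the 39 was above it. The highest value was in peritumoral 3 for 20 genes and in tumoral 4 for 13, and the lowest in peritumoral 4 for 20 and in tumoral 2 for 13. The high and low arrays lay in both labels.

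**Figure D3:**
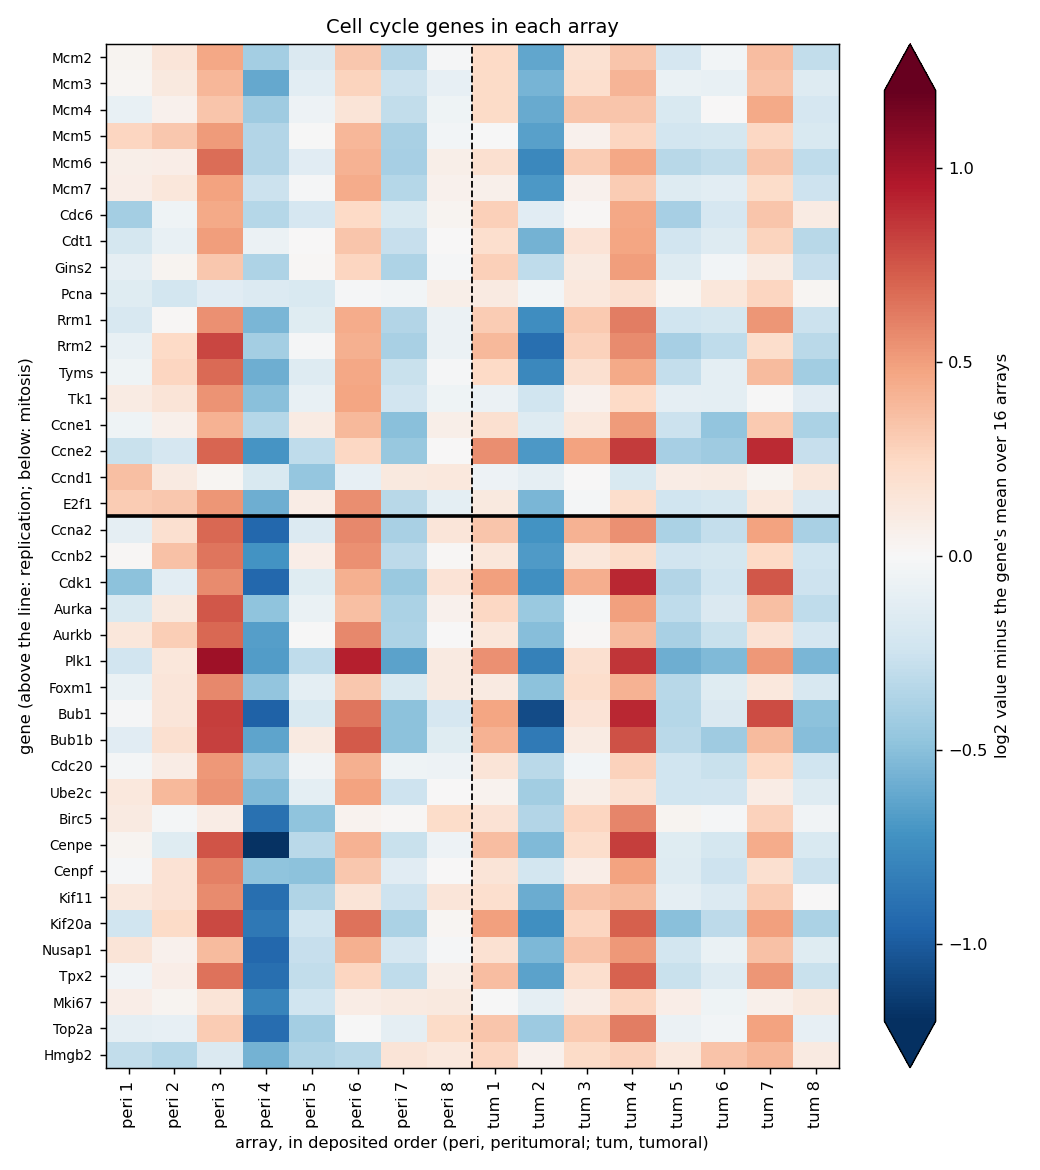
Log2 value of each gene minus its mean over the 16 arrays, arrays in deposited order and replication genes above the solid line. Red columns at peritumoral 3, peritumoral 6, tumoral 1, tumoral 4 and tumoral 7 and blue columns at peritumoral 4 and tumoral 2 run through nearly all rows, with Ccnd1, Hmgb2, Pcna and Mki67 departing from them. Tumoral 3 had mean deviations of 0.16 for replication and 0.19 for mitosis genes.

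In the deposited order the high arrays other than tumoral 3 recurred at a fixed spacing. Tumoral 3, with 37 of the 39 genes above their own median, was at position 11 and lay off it. At positions 3, 6, 9, 12 and 15, which are peritumoral 3, peritumoral 6, tumoral 1, tumoral 4 and tumoral 7, the value lay above both neighbouring arrays at all 5 positions in 34 of the 39 genes (87.2%), 16 of 18 in replication and 18 of 21 in mitosis, against 3729 genes in all (18.7%). After quantile normalization the count was 26 of 39 (66.7%), against 15.7% of all genes. The 5 exceptions were Ccnd1, with no such position, Mki67 with 2, and Tk1, Birc5 and Hmgb2 with 4 each. These positions were chosen after the values were seen, no label gives them a meaning, and no groups were made from them.

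**Figure D4:**
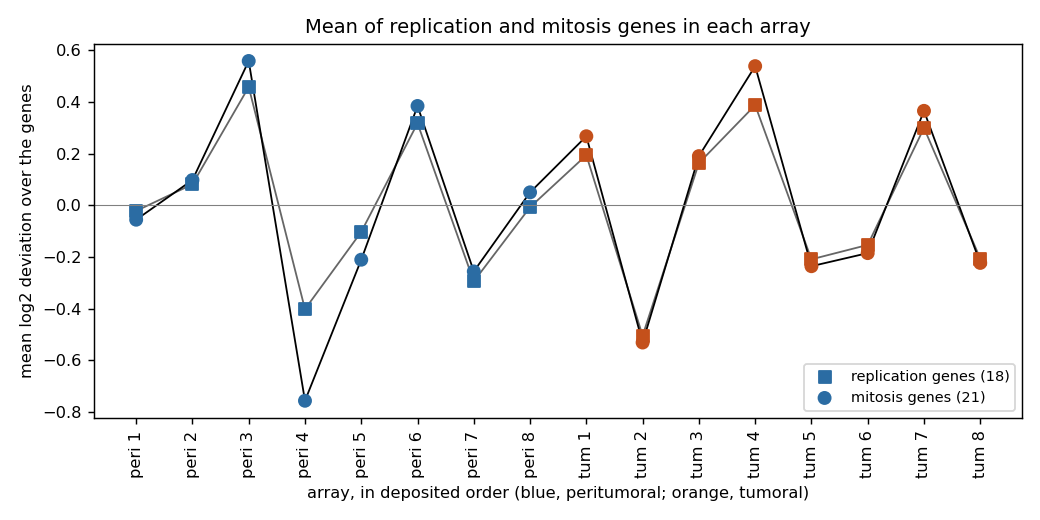
Mean log2 deviation of the replication genes (squares, 18) and of the mitosis genes (circles, 21) in each array, in deposited order, blue for peritumoral and orange for tumoral. Both series peak at positions 3, 6, 9, 12 and 15 and are lowest at peritumoral 4 and tumoral 2, the mitosis genes reaching -0.76 in peritumoral 4.

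Cdk1 served as the reference for the shared variation over the 16 arrays. In all, 115 relations with Cdk1 were computed, with permutation p-values from 100000 resamples (smallest possible 1e-05) and Benjamini-Hochberg adjustment over them. The 38 other genes had a median Pearson r of 0.87 and a median Spearman rho of 0.87, and 36 passed an adjusted p of 0.05 by r and 35 by rho. Of the 38, 27 had an r of at least 0.8 (71.1%), against 11.2% of all other genes. Within tumoral arrays 35 reached 0.8, within peritumoral arrays 30 did, and without the 2 arrays farthest from the median of Cdk1 (tumoral 4 and tumoral 7) 26 did. Neither the permutation test nor the r in these subsets of arrays was computed over all genes, so those counts have no background share. After quantile normalization 24 reached 0.8, against 7.43% of all genes. The replication genes had a median r of 0.87 and the mitosis genes of 0.88.

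Ccne2 followed Cdk1 most closely, with an r of 0.97 (rho 0.94, permutation p = 1e-05, adjusted p = 6.05e-05, and 0.95 without the 2 farthest arrays). Ccnd1 had an r of -0.12 (rho -0.18, permutation p = 0.662). Hmgb2 had an r of 0.43 (rho 0.48, adjusted permutation p = 0.110). It was 0.72 within tumoral arrays and 0.30 within peritumoral arrays. Pcna had an r of 0.58 (rho 0.55, adjusted permutation p = 0.0273) that fell to 0.35 without the 2 farthest arrays, so its relation rests on those arrays. Within tumoral arrays it was 0.87 and within peritumoral arrays 0.35. Mki67 had an r of 0.60 (adjusted permutation p = 0.00635) and a rho of 0.46 (adjusted permutation p = 0.0933).

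Properties of the whole array moved with Cdk1. The SD of all values in an array correlated with Cdk1 (r = 0.90, rho = 0.85, adjusted permutation p = 8.85e-05), at 0.94 within tumoral and 0.85 within peritumoral arrays and 0.84 without the 2 farthest arrays. Its part in the shared variation was not tested beyond quantile normalization, which gives every array the same distribution and under which Cdk1 still ran from 7.74 to 9.49. Genes outside the lists were also close to Cdk1: Uchl5, a proteasome deubiquitinase, had an r of 0.98 (0.97 after quantile normalization), Rpn2, of the oligosaccharyltransferase, 0.98, and Eif3c, a translation initiation factor, 0.97. They were picked from all genes for their r, after the values were seen.

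Markers of several cell types moved with Cdk1, most of them in the opposite direction. By Pearson r with an adjusted permutation p under 0.05, 7 of 8 lung epithelial and 6 of 8 endothelial genes were lower where Cdk1 was higher. So were 6 of 8 neutrophil, 6 of 6 T and NK cell, 5 of 5 B cell and 5 of 7 alveolar macrophage genes. The same held for 5 of 8 conventional dendritic cell, 5 of 8 fibroblast, 5 of 8 keratin and carcinoma and 1 of 3 erythroid genes. The permutation test was not run over all genes, so the counts have no background share. By Spearman rho, Klrb1c, Cdh5, Sparc and Yap1 of the counted genes did not pass (adjusted permutation p = 0.205, 0.0995, 0.232 and 0.0996). Slc4a1, an erythroid gene, passed by rho alone (adjusted permutation p = 0.0457). Peritumoral 4 had the lowest Cdk1 (7.78) and the highest endothelial, B cell, and T and NK cell means. No pooled r was computed without it. Within tumoral arrays the median r of these lists was -0.70, -0.78 and -0.73. Over all other genes the median r with Cdk1 was -0.21, and 0.07 after quantile normalization. The median r of the lung epithelial genes was -0.71, at -0.89 within tumoral and -0.83 within peritumoral arrays. Scgb1a1, a secretoglobin of airway club cells, read 7.42, 7.51, 7.79, 7.82 and 7.25 in peritumoral 3, peritumoral 6, tumoral 1, tumoral 4 and tumoral 7, and between 10.24 and 13.06 in the other 11 arrays.

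Cd209a, a marker of CD11b+ dendritic cells and their monocyte-derived relatives, read 11.36, 10.74, 11.16, 10.88 and 11.43 in the same 5 arrays, and between 11.97 and 12.84 in the other 11 arrays. Irf4, a transcription factor of these cells, read between 8.77 and 9.39 there and between 9.88 and 10.66 in the others. Tumoral 3, with Cdk1 at 9.15, had Cd209a at 12.30 and Irf4 at 10.20, so high Cdk1 and low Cd209a did not coincide in every array. Because the values of Scgb1a1, Cd209a and Irf4 fall into separate clusters of arrays, no pooled r is given for them. Of the 8 conventional dendritic cell genes, the list mean ran from -0.85 to 0.51 in peritumoral and from -0.64 to 0.48 in tumoral arrays, and Itgax, which was sorted on, ran from 11.07 to 11.79 with no such gap.

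Fcgr1 (CD64), a monocyte and macrophage receptor, ran from 8.03 to 10.72 and rose with Cdk1 (r = 0.95, rho = 0.97, adjusted permutation p = 6.05e-05, 0.93 without the 2 farthest arrays, 0.95 within tumoral and 0.96 within peritumoral arrays). Itgam had an r of 0.84 (rho 0.88, adjusted permutation p = 6.05e-05, 0.83 without the 2 farthest arrays, 0.94 within tumoral and 0.90 within peritumoral arrays). The other 4 monocyte genes did not follow it as closely: the r was -0.30 for Plac8 (-0.63 within tumoral and -0.55 within peritumoral arrays), 0.36 for Ms4a4c, 0.37 for Cd14 and 0.49 for Ccr2, and the median of the 5 was 0.37. The 5 monocyte genes had a list mean from -0.74 to 0.20 in peritumoral and from -0.11 to 0.44 in tumoral arrays. The lung epithelial list ran from -0.94 to 2.57 and from -0.89 to 0.31, the alveolar macrophage list from -0.57 to 1.41 and from -0.42 to 0.17, and the endothelial list from -0.53 to 3.80 and from -0.57 to -0.43. The lung epithelial, alveolar macrophage and endothelial lists were highest, and the monocyte list and the mitosis genes lowest, in peritumoral 4. The replication genes were lowest in tumoral 2, where the endothelial list stood at -0.43. The part of these other cells in the levels of the division genes was not tested.

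With peritumoral 4 and 7 left out, the balance of the 39 genes was different. Of the 39, 8 had the higher tumoral mean, beside 38.4% of all genes, and the median difference was -0.13. 8 of the 39 then reached an unadjusted p under 0.05 (12.8% of all genes). Of these, 6 were lower in tumoral arrays (7.57% of all genes): Mcm5, Tk1, E2f1, Ccnb2, Aurkb and Ube2c. The other 2, Hmgb2 and Pcna, were higher (5.22% of all genes). Hmgb2 alone passed the adjusted test, as 0.441% of all genes did. The adjusted p of the 6 lower genes lay between 0.205 and 0.351. Tk1 was read here from its probe set with the higher mean, and its other probe set was not tested without peritumoral 4 and 7.

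**Figure D5:**
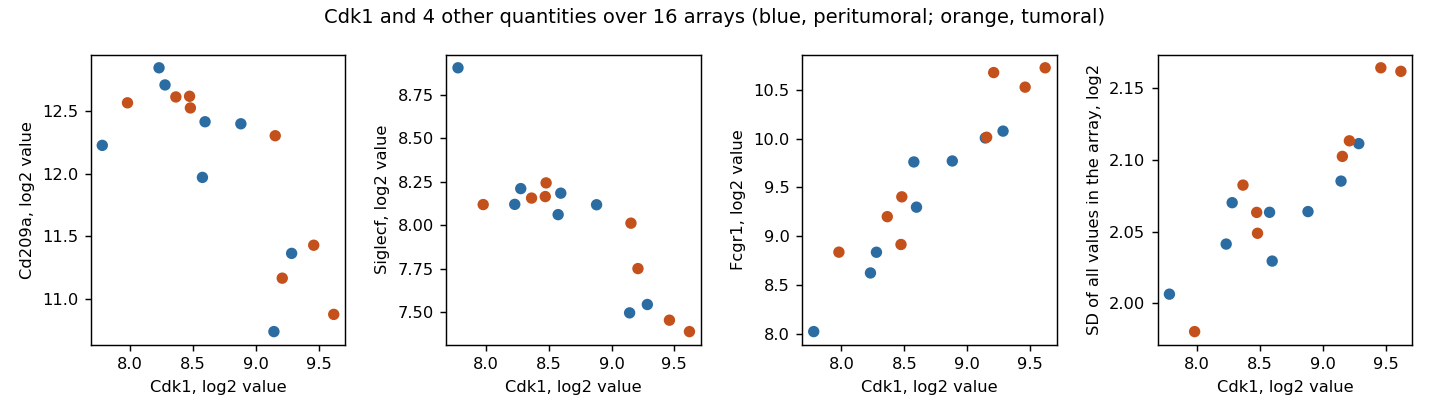
Cdk1 (x axis, log2) against Cd209a, Siglecf, Fcgr1 and the SD of all values of the array (y axes, log2) in the 16 arrays, blue for peritumoral and orange for tumoral. Siglecf, an alveolar macrophage receptor plotted after its values were seen, runs from 7.39 to 8.91; Cd209a is lowest in 5 arrays of high Cdk1, and Fcgr1 and the SD rise with Cdk1 in both labels.

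Other genes of the same pathways were not called either. Of 40 further replication genes 31 had the higher tumoral mean (28 after quantile normalization, and 19 to 35 when single arrays were left out, lowest without tumoral 7), with a median difference of 0.05. Of 60 further mitosis genes 43 had it (39 after quantile normalization), with a median of 0.07. That count was 29 to 55 when single arrays were left out, lowest without peritumoral 4. Without both peritumoral 4 and 7 the higher tumoral mean was found in 15 of the 40 and 22 of the 60, beside 38.4% of all genes. The median difference was then -0.04 in both lists. Cks2, a small subunit of cyclin-dependent kinases, was the nearest to a call (difference 0.39, limma adjusted p = 0.256). It was at 9.58 ± 0.22 in tumoral and 9.19 ± 0.27 in peritumoral arrays. In peritumoral 7 and 8 it read 9.78 and 9.40, within its tumoral range of 9.38 to 9.92. In peritumoral 1 to 6 it read 8.99 to 9.17, and these arrays were also the lower ones in Hmgb2. Ube2s, which extends ubiquitin chains for the anaphase promoting complex, differed by 0.24 (adjusted p = 0.311). Of the replication genes, Slbp, the histone mRNA binding protein, differed by 0.22 (adjusted p = 0.382) and Pold1, the catalytic subunit of polymerase delta, by -0.15 (adjusted p = 0.424).

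No gene of the other lists passed the test. Of 17 further G1/S regulators, 9 had the higher tumoral mean (5 without peritumoral 4, and 6 without tumoral 4 or tumoral 7), and Ccnd3 (cyclin D3) was at 9.02 ± 0.17 in tumoral and 9.42 ± 0.23 in peritumoral arrays (difference -0.40, adjusted p = 0.240). The list of 19 cell cycle brakes also holds Mdm2 and, of the MuvB complex, Lin9, Lin52 and Lin54. Of the 19, 11 had the higher tumoral mean, with Rbl2 (p130), a pocket protein of resting cells, at 0.17 (limma adjusted p = 0.404). Of 31 histone genes, taken by their older cluster names and not checked for expression in S phase, 15 did (12 to 22 when single arrays were left out). Among them, H2bc3 was at 9.65 ± 0.30 in tumoral and 8.73 ± 0.70 in peritumoral arrays (difference 0.91, adjusted p = 0.246). H2bc3 read 9.52 and 9.57 in peritumoral 7 and 8, and 7.51 to 9.03 in peritumoral 1 to 6, the same arrays that were higher and lower in Hmgb2.

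Their shared variation with Cdk1 differed between lists. An r of at least 0.8 was reached by 31 of 40 further replication genes (median 0.88) and by 44 of 60 further mitosis genes (median 0.88). It was reached by 14 of 31 histone genes (median 0.78) and by 5 of 17 further G1/S regulators (median 0.77). Of the 19 genes listed as brakes, 3 reached it (median 0.07). The lowest were Pold1 at 0.18, Pttg1 (securin) at -0.23, Myb at -0.81 and Cdkn1c (p57) at -0.72. These are descriptions over the same 16 arrays, and the difference between the lists was not tested.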

How the data were processed

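Gene expression of sorted CD11b+ myeloid cells was measured on 16 Affymetrix whole-transcript arrays, 8 per label, grouped by title. Per the labels' protocols, RNA was extracted with the miRNeasy kit and amplified with the Ambion WT Expression Kit. The authors deposited 1 table of 28853 probe sets, read as log2 values from their range. For the log base, background correction, normalization and software the entry is: not given in the sources used here. A fold change therefore assumes log base 2. Scanner files were not analysed here, so no detection call or scan batch was examined, and the number of arrays limits the precision.

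The 39 genes and the comparison lists were chosen with earlier results of these data known. The platform annotation names 1 symbol for 21789 probe sets, several for 1621 and none for 5443, and probe sets with 1 symbol gave 19938 genes, taking the highest mean where there were several. Gene identifiers matched a RefSeq table of GRCm38.p6 for 19855 genes, and 0 symbols changed. Histone genes listed by older symbols matched 0 genes, and 31 were found through synonyms, without a check of their expression in S phase. The label was the only term of a linear model (lmFit and eBayes of limma 3.58.1, run in R 4.3.3), with Benjamini-Hochberg adjustment over all genes and a threshold of 0.05; lists were described by counts and medians, without a test. Named members were the 2 with the smallest limma p in each list of members, and Mki67; named other genes were 3 per list by limma p, and named markers the 2 of highest variance per list, except where a choice made after the values were seen is stated. Correlations were computed with numpy 2.4.6, pandas 2.3.3 and scipy 1.17.1 in Python 3.11.15. The limma script was tested on simulated data. Alternatives covered normalization (quantile, centring), filtering, array weights, leaving out arrays, exact rank-sum tests and replicate blocks. The labels do not pair the arrays by replicate number, and same-numbered deviations correlated at -0.56 to 0.29. These correlations cannot tell whether same-numbered arrays share an animal, because the variation shared by many genes peaked at different replicate numbers in each label.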

Additional observations from a re-analysis of the deposited data

Results flagged for a closer look

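Mki67 in peritumoral 4 read 9.38, far from the other peritumoral arrays, of which the nearest read 9.93. The gap was 0.587 of the range of the label. In all, 78 groups of 8 arrays were examined in this way, 39 genes by 2 labels, and chance flags about 1 in 20 of such groups. Endothelial genes were highest in the same array, and their part in the value was not tested.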

How the results depend on the processing

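Leaving out 1 array at a time gave 0 to 128 genes past the adjusted threshold, 128 without peritumoral 7 and 20 without peritumoral 8, and 0 to 1 of the 39 genes (Hmgb2). Without peritumoral 4 and 7, 88 genes and 1 of the 39 (Hmgb2) passed. Of the 39, 8 then had the higher tumoral mean, and 0 of the 6 spindle and kinetochore genes did. Among those 6, Cenpe and Tpx2 turned to -0.015 and -0.059, neither past the test. Without those arrays and tumoral 2, a choice made after seeing the data, 188 genes and 1 of the 39 (Hmgb2, adjusted p = 0.0288) passed. With an unadjusted threshold of 0.05, 2292 genes and 2 of the 39 passed. The cause of these changes was not tested. A fit with the replicate number as a block called 0 genes and 0 of the 39, with an adjusted p of 0.360 for Hmgb2, and the block had no basis in the labels. In the other alternatives no gene was called. The median difference ran from -0.08 to 0.12 for mitosis genes and from -0.08 to 0.02 for replication genes when single arrays were left out, and was -0.17 and -0.12 without peritumoral 4 and 7.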
